A study of Mus musculus with 5 samples.

Results

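Chemokines are small secreted proteins that steer the movement of leukocytes and of migrating embryonic cells, and they act through G protein-coupled receptors on the responding cell. CC and CXC ligands are named for the spacing of their first cysteines, and each binds a limited set of CC (Ccr) or CXC (Cxcr) receptors. Inflammatory ligands are induced in macrophages and other cells by injury or microbial signals, whereas ligands such as Cxcl12 are made steadily by stromal cells of the developing kidney and other organs. The genes described here are all rows of the deposited table whose symbol begins with Ccl, Cxcl, Ccr or Cxcr followed by a digit, which gave 46 of 18044 genes. They comprise 30 ligands and 16 receptors.

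The RNA came from the junction of the renal pelvis and the kidney of wild-type C57BL/6 mouse embryos at E18.5, a region that starts the contractions of the upper urinary tract. Junctions of whole litters were pooled and dispersed with collagenase, and cells were stained for the channel protein HCN3 and sorted by flow cytometry. Of 5 libraries, 2 are labelled HCN3+ (pacemaker cells of the urinary tract, in the submitters' description) and 3 are labelled HCN3- (other cells of the junction). No group carries a mutation or a treatment. Nothing in the labels says that replicates came from separate pools, so the p-values rest on a spread between libraries that may be technical.

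The libraries held 24588864 to 39034478 reads in genes. Expression is given as normalized counts, which are reads divided by a size factor for each library. The transcript of the sorted protein, Hcn3, had 0 reads in the library labelled HCN3+ 1, where 3 reads would have been a normalized count of 4.23, and was at 44.5 in that labelled HCN3+ 2. It was at 103, 32.2 and 41.9 in those labelled HCN3- 1, 2 and 3, so the labels were not borne out by this transcript, and every direction by label rests on the labels alone. The authors' deposited table compares the libraries in another way than their titles: its fold equals, in all 18047 rows within a tolerance of 0.01, the mean of the libraries labelled HCN3+ 2, HCN3- 1 and HCN3- 3 over the mean of those labelled HCN3+ 1 and HCN3- 2. The libraries labelled HCN3+ 1 and HCN3- 2 are called the first set and the other 3 the second set. The table is named as a comparison of HCN3- with HCN3+, but its columns do not say which set held the sorted HCN3+ cells. Its grouping and the titles thus conflict, and which of them is right was not tested. Values per library are given below in that order, HCN3+ 1 then HCN3- 2 for the first set, and HCN3+ 2, HCN3- 1 then HCN3- 3 for the second.

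Member levels followed these sets more closely than the labels. In the first set the leading members were the receptors Ccr1 and Ccr2, the ligand Ccl6 and other inflammatory CC ligands, and in the second set it was Cxcl12. Members took 0.255% and 0.271% of all gene reads in the first set and 0.0353%, 0.0450% and 0.0717% in the second. Cxcl12 alone made up 78.7%, 77.3% and 88.6% of the summed member level in the second set. In the first set Ccr1 made up 21.4% and 22.2% of it, and Ccr2 28.0% and 13.2%.

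**Figure D1:**
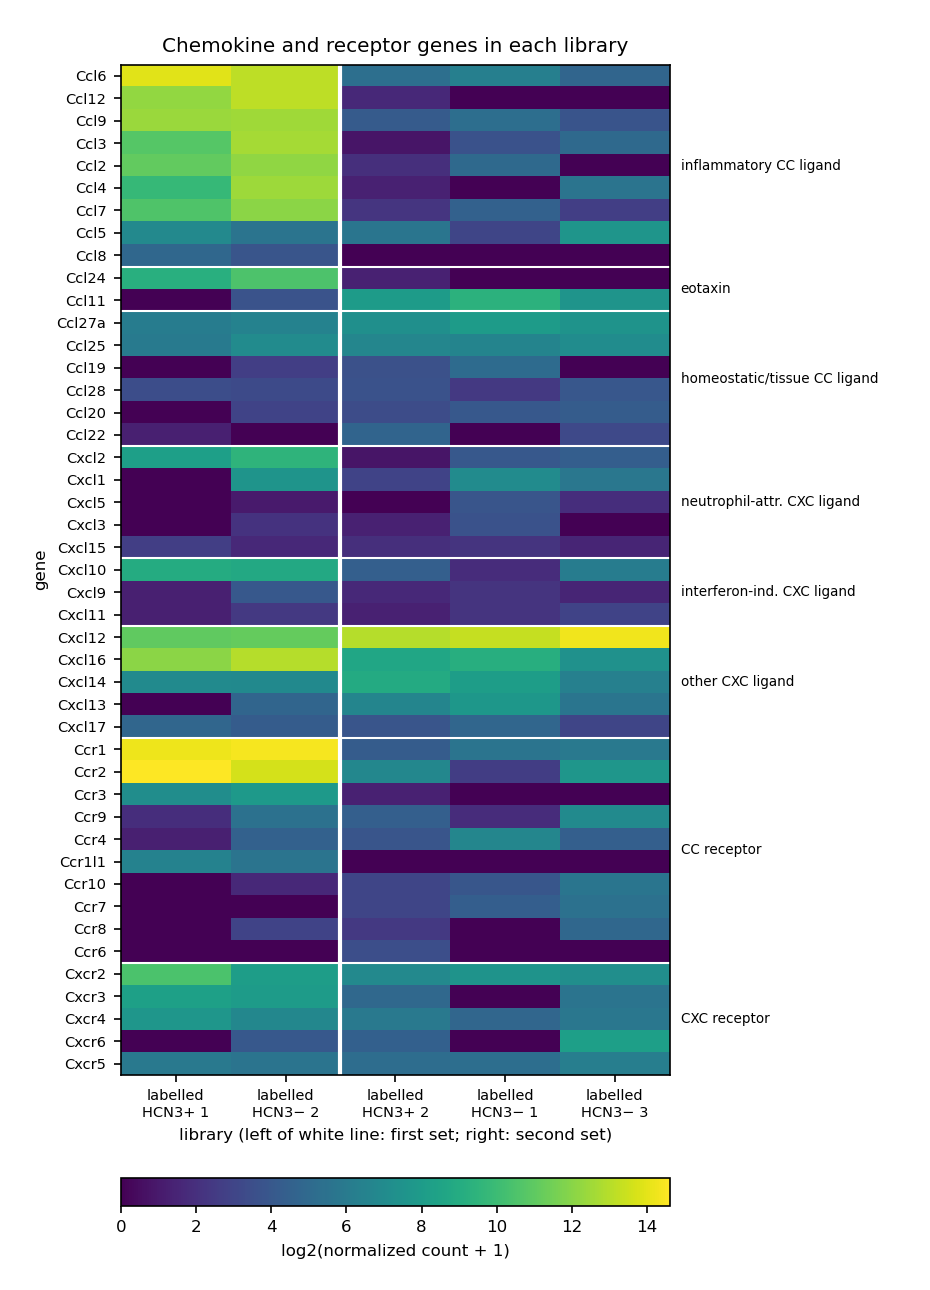
Level of 45 of the 46 genes (rows, grouped by role) in each library (columns), as log2(normalized count + 1). The white line separates the first set from the second: Ccr1 was at 18876 and 21537 left of it and at 17.8 to 57.7 right of it, while Cxcl12 was at 2106 and 2262 against 8058 to 19734.

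The comparison that the labels imply, sorted HCN3+ against HCN3- cells, called no member. Of 40 members with a mean normalized count of at least 5, limma called 0 at an adjusted p of 0.05, where the background over 16579 genes was 0.00%. Cxcl1 was the only member with an unadjusted p under 0.05. On reads recovered from the normalized counts, edgeR and DESeq2 also called 0 members, with 1 unadjusted p under 0.05 in each. Over all genes edgeR called 0.00% and DESeq2 0.0603% by label. The median log2 fold change of the 40 members, labelled HCN3+ minus labelled HCN3-, was 0.29, against -0.03 over all genes tested.

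Labelled groups overlapped for 38 of these 40 members, and the background of genes whose labelled groups did not overlap was 10.8% (5.34% higher and 5.44% lower). Cxcl1, a neutrophil attractant that binds Cxcr2, was at 0 and 6.68 in the libraries labelled HCN3+ 1 and 2 and at 128, 185 and 54.9 in those labelled HCN3- 1, 2 and 3. All 3 libraries labelled HCN3- lay above both labelled HCN3+, but the log2 fold change of -5.32 (SE 1.30) did not pass in limma (unadjusted p = 0.00856, adjusted p = 1.00). Ccr4, a receptor of T cell subsets, was at 1.41 and 13.4 in the libraries labelled HCN3+ and at 104, 22.2 and 20.5 in those labelled HCN3-. By label it was lower by a log2 fold change of -2.67 (SE 1.38; limma adjusted p = 1.00). With the sets as a further term in the label fit, an alternative added after seeing the data, 0 members were called (background 0.00%). A block that crosses the replicate numbers, also added later, called 0 members and 0.0121% of genes.

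Between the sets of the deposited table, limma called 17 members higher and 3 lower in the first set, where the background was 10.6% of genes higher and 9.88% lower. The authors' deposited table called 17 members higher and 2 lower in the first set at an adjusted p of 0.05, with a background of 8.10% and 6.09%. The 17 called higher by limma had log2 fold changes of 4.15 to 12.14, and they were 8 inflammatory CC ligands, Ccl24, Cxcl2, Cxcl10, Cxcl16 and CC receptors. Those lower were Cxcl12, Ccl11 and Ccr7. The median over the 40 members was 1.26, against -0.07 over all genes tested. Levels of the sets did not overlap for 27 of the 40, beside a background of 49.6% (20 higher and 7 lower, against 23.5% and 26.1%). Calls of 9 members held with each library left out in turn: Ccl6, Ccl7, Ccl9, Ccl12, Ccl24, Cxcl16, Ccr1, Ccr1l1 and Ccr3. Without the library labelled HCN3+ 1 only these 9 were called, and the background in either direction fell from 20.5% to 7.49%. It was 11.5%, 10.4%, 17.1% and 17.0% without the libraries labelled HCN3+ 2, HCN3- 1, HCN3- 2 and HCN3- 3, where 15, 14, 14 and 18 members were called. By other means it was 17.0% with edgeR, 27.3% with DESeq2, 14.2% in the authors' deposited table, 20.5% with TMM scaling and 18.8% to 22.0% with other pseudocounts and filters. Of the 9 members whose calls held, Ccl12, Ccl24, Ccr1l1 and Ccr3 passed the filter on low values only through the first set. The fits without 1 library kept the filter of all 5 libraries. In bulk RNA, fewer cells of a type and less RNA per cell cannot be told apart.

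**Figure D2:**
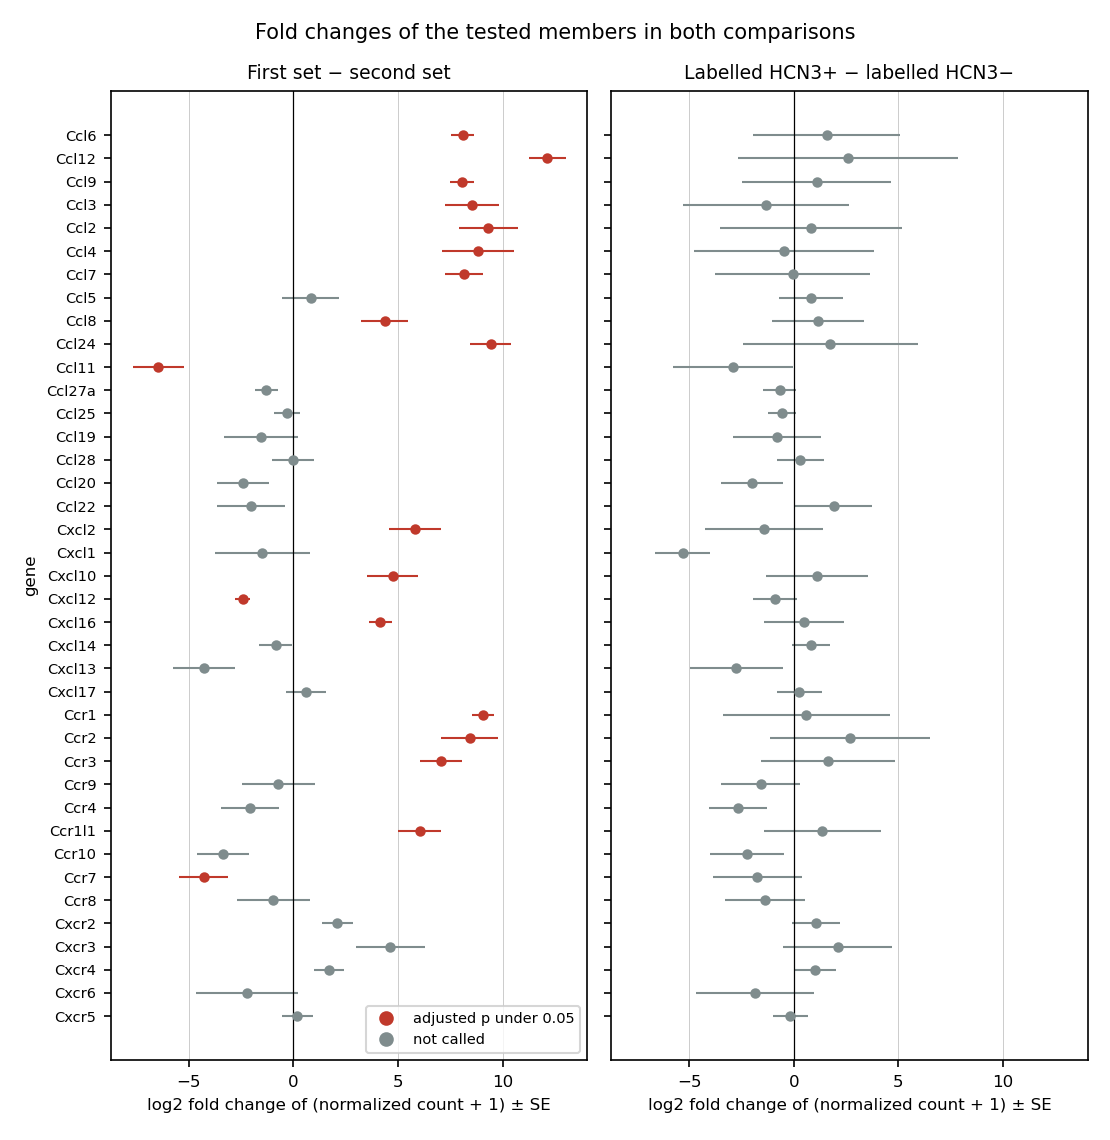
Log2 fold change of (normalized count + 1) with its standard error (horizontal axes) for 39 of the 40 tested genes (vertical axis), first set minus second set on the left and labelled HCN3+ minus labelled HCN3- on the right. Red points have an limma adjusted p under 0.05: 19 on the left, from Ccl11 at -6.46 to Ccl12 at 12.14, and 0 on the right.

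The ligands of Ccr2, the receptor that brings monocytes out of the marrow and into tissue, were among the most divided members. Ccl12, a mouse monocyte attractant (chromosome 11, 82101845 to 82103400, plus strand, mm10), was at 4855 and 9102 in the first set and at 2.23, 0 and 0 in the second. The second set held 3 reads of Ccl12 in all, so the ratio of the sets' pooled levels was 8546, with a 95% exact interval of 2923 to 41444 that covers counting error only. Its log2 fold change was 12.14 (SE 0.88, limma adjusted p = 0.00054), the highest of the members.

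Ccl2, the principal Ccr2 ligand (chromosome 11, 82035571 to 82037453), was at 2168 and 4587 in the first set. Its levels in the second were 2.97, 30.3 and 0, and the log2 fold change was 9.30 (SE 1.41, limma adjusted p = 0.00538). Ccl7, which shares Ccr2, stood at 1510 and 4343 against 3.71, 22.3 and 5.58 (log2 fold change 8.16, SE 0.92, limma adjusted p = 0.0019). For each of these 3 ligands the library labelled HCN3- 2 was the highest of the 5, and no library of the second set exceeded a normalized count of 30.3.

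Ccl8 had 20 and 12 reads in the first set and 0 reads in every library of the second, which is at least 8.10-fold higher against a floor of 3 reads per library. It passed the filter on low values only through the first set, and limma called it (adjusted p = 0.034) but the authors' deposited table did not (0.265). Neither edgeR (adjusted p = 0.0573) nor DESeq2 (adjusted p = 0.0752) called it. The call was also lost without the library labelled HCN3+ 1, HCN3+ 2, HCN3- 1 or HCN3- 3.

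The macrophage inflammatory proteins and their relatives rose together in the first set. Ccl6, made by myeloid cells (chromosome 11, 83587882 to 83593087, minus strand), was at 15673 and 9124 against 39.3, 77.5 and 26.0 (log2 fold change 8.08, SE 0.54, limma adjusted p = 0.000397). Ccl9, its neighbour and a Ccr1 ligand, was at 5399 and 5908 against 17.1, 37.4 and 13.02 (8.05, SE 0.58, limma adjusted p = 0.000531). The 2 libraries of the first set differed by 1.72-fold for Ccl6 and by 1.09-fold for Ccl9.

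Ccl3 was at 1694 and 6364 in the first set and at 0.742, 11.6 and 30.7 in the second, a log2 fold change of 8.53 (SE 1.29, limma adjusted p = 0.00531). Ccl4 was at 871 and 5673 against 1.48, 0 and 47.4 (8.82, SE 1.72, limma adjusted p = 0.0136). Both are inflammatory proteins that activated macrophages secrete. The calls of Ccl2, Ccl3 and Ccl4 were lost in limma without either library of the first set, and that of Ccl4 also without the library labelled HCN3+ 2 or HCN3- 1.

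Ccl5 did not follow this division. This ligand of Ccr1, made by T cells, natural killer cells and others, was at 116 and 48.8 in the first set and at 49.7, 7.13 and 193 in the second. The library labelled HCN3- 3 was highest and that labelled HCN3- 1 lowest, both in the second set, and the log2 fold change was 0.82 (SE 1.35, limma adjusted p = 0.719).

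The eotaxins, which share the receptor Ccr3 of eosinophils, went in opposite directions. Ccl24 (chromosome 5, 135569937 to 135573049, minus strand) was at 579 and 1481 in the first set and at 1.48, 0 and 0 in the second, from 2 reads. The pooled ratio was 1921, with an exact interval of 531 to 15873, and the log2 fold change 9.42 (SE 0.97, limma adjusted p = 0.00143). Ccl11 (chromosome 11, 82057823 to 82062955) was at 0 and 12.2 in the first set and at 254, 669 and 191 in the second.

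Every library of the second set lay above both of the first for Ccl11, with a log2 fold change of -6.46 (SE 1.23, limma adjusted p = 0.0123) and an authors' deposited adjusted p of 0.0120. The Ccl11 call was lost without the library labelled HCN3+ 1, HCN3+ 2 or HCN3- 1. Their receptor Ccr3 was at 144 and 224 in the first set and at 1.48, 0 and 0 in the second, so it was higher in the same set as Ccl24.

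Among CC ligands of steady-state tissue limma called none of the 6 tested, beside a background of 20.5% in either direction. DESeq2 called 1, Ccl27a, beside 27.3%. Ccl27a, a skin-associated ligand of Ccr10, was at 67.7 and 88.8 in the first set and at 153, 260 and 182 in the second (log2 fold change -1.31, SE 0.55, limma adjusted p = 0.15; DESeq2 adjusted p = 0.0451). Its exons overlap those of Il11ra1 on the other strand and it has near-identical copies in the mouse genome, so its reads are uncertain in these libraries, whose chemistry is not stated to keep strand. Ccl25, the ligand of Ccr9, was not called, at 60.6 and 129 against 105, 95.3 and 135 (-0.32, SE 0.63). Its exons overlap those of Elavl1 on the other strand. Ccl19, Ccl20, Ccl22 and Ccl28 stayed at or below 33.9 in every library.

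Of the neutrophil-attracting CXC ligands, 2 were tested and limma called Cxcl2 alone, beside a background of 20.5% in either direction. Cxcl2 (chromosome 5, 90903871 to 90905938) was at 304 and 726 in the first set and at 0.742, 15.1 and 19.5 in the second set (log2 fold change 5.82, SE 1.24, limma adjusted p = 0.0186). Its neighbour Cxcl1 was at 0 in the library labelled HCN3+ 1 and at 185 in that labelled HCN3- 2, so it had no common level in the first set (log2 fold change -1.48, SE 2.27, limma adjusted p = 0.70). Cxcl3, Cxcl5 and Cxcl15 did not reach a mean of 5 and were not tested.

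Cxcl10, an interferon-induced ligand of Cxcr3, was at 498 and 447 against 20.8, 2.67 and 67.9 (log2 fold change 4.74, SE 1.23, limma adjusted p = 0.0364). For Cxcl10, edgeR made no call (adjusted p = 0.0544), while DESeq2 did (adjusted p = 0.00204). The calls of Cxcl2 and Cxcl10 were each lost without either library of the first set and without the library labelled HCN3- 1, and that of Cxcl10 also without HCN3+ 2. Cxcl9 and Cxcl11, which bind the same receptor, were under the filter, at 15.5 or lower in each library. Exons of Cxcl10 overlap the opposite-strand gene Art3.

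NF-kB and AP-1 drive chemokine induction in textbook accounts. Promoters of 3 ligands called higher in the first set (Cxcl2, Cxcl10 and Ccl9) and of Cxcl1, which was not called, are shown. All of these hold an NF-kB match, so they do not stand for the members as a whole. Each is the 110 bases before the RefSeq start (GRCm38.p6), 5′ to 3′ on the gene's strand, with matches to the searched letters in capitals. They lie at chr5:90891135-90891244 (Cxcl1, plus), chr5:90903789-90903898 (Cxcl2, plus), chr5:92348890-92348999 (Cxcl10, minus) and chr11:83578637-83578746 (Ccl9, minus).
Cxcl1: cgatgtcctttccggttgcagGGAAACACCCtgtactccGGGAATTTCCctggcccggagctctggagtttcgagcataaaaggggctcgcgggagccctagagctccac
Cxcl2: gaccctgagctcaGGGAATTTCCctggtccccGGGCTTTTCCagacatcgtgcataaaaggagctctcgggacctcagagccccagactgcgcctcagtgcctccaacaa
Cxcl10: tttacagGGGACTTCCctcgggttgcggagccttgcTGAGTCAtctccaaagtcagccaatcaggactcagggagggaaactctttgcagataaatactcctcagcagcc
Ccl9: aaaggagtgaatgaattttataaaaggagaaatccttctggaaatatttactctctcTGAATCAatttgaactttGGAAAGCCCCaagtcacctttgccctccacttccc

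The capitals mark an NF-kB pattern (GGG, any 2 bases and TTTCC, or GGGANTTCC) or the AP-1 pattern TGANTCA, searched on both strands. RefSeq promoters were matched for 32 of the 46 members. In the 250 bases before the start, 8 of these 32 held either NF-kB pattern, against 2.69% of 27025 promoters. The 8 included 4 of 11 members called higher in the first set (Ccl9, Ccr3, Cxcl2 and Cxcl10) and 4 of 20 not called (Ccl20, Cxcl1, Cxcl3 and Cxcl9). The AP-1 pattern, which reads the same on both strands, was in 4 of 32, against 6.87% of all. The letters GAGGAA, the core of PU.1 sites of myeloid genes, were in 10 of 32 against 23.1%, and in Ccr3 they overlap an NF-kB match. A match is a description of letters, and Cxcl1 shared its pattern with Cxcl2 without sharing its levels.

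The highest member of the second set was Cxcl12, the stromal ligand of Cxcr4 (chromosome 6, 117168535 to 117181367, plus strand). It was at 2106 and 2262 in the first set and at 8058, 10124 and 19734 in the second. The sets did not overlap, with a log2 fold change of -2.42 (SE 0.37, limma adjusted p = 0.00534) and an authors' deposited adjusted p of 0.0478. The call was lost without either library of the first set. By label Cxcl12 was at 2106 and 8058 against 10124, 2262 and 19734, so those groups overlapped.

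Receptors of Cxcl12 differed from each other. Cxcr4 was at 203 and 107 in the first set and at 59.3, 27.6 and 54.9 in the second, which did not overlap but was not called (log2 fold change 1.69, SE 0.72, limma adjusted p = 0.151). The scavenger receptor Ackr3, which removes Cxcl12 and is not among the 46, was at 692 and 998 against 3615, 3969 and 14351 (-2.83, limma adjusted p = 0.017).

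Cxcl16, a membrane-bound ligand of Cxcr6 made by macrophages and other cells (chromosome 11, 70453983 to 70459984, minus strand), was present in all libraries. Its levels were 4304 and 8090 in the first set and 390, 576 and 163 in the second (log2 fold change 4.15, SE 0.56, limma adjusted p = 0.00355). Part of its exons overlap Zmynd15 on the other strand. Its receptor Cxcr6 did not follow: it was at 0 and 15.5 in the first set and at 21.5, 0 and 296 in the second, where the library labelled HCN3- 3 held most of its reads.

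Cxcl13, a B cell attractant, was at 0 and 26.6 in the first set and at 99.4, 210 and 50.2 in the second. The sets did not overlap, but the log2 fold change of -4.29 (SE 1.49) did not pass in limma (adjusted p = 0.0901). Cxcl14, a ligand of many epithelia, was at 127 and 119 against 481, 277 and 81.9 (-0.85, SE 0.79), and the sets overlapped. Cxcl17 stayed between 7.44 and 27.6.

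CC receptors gave the widest margins in absolute level. Ccr1, a receptor of monocytes, macrophages and neutrophils (chromosome 9, 123962124 to 123968692, minus strand), was at 18876 and 21537 in the first set and at 17.8, 48.1 and 57.7 in the second. The log2 fold change was 9.06 (SE 0.54, limma adjusted p = 0.000343), the smallest adjusted p among the members. Ccr2, the monocyte receptor (chromosome 9, 124101950 to 124113557), was at 24758 and 12762 against 106, 5.35 and 206 (8.42, SE 1.37, limma adjusted p = 0.00707).

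The call of Ccr2 was lost without either library of the first set. Ccr3 stood at 7.06 (SE 1.01, limma adjusted p = 0.00448), with a pooled ratio of 335 and an exact interval of 91.8 to 2776. Ccr1l1, a close relative of Ccr1, had 62 and 43 reads in the first set and 0 reads in the second, which is at least 26.4-fold higher against the floor of 3 reads per library. Ccr1l1, Ccr3, Ccl12 and Ccl24, like Ccl8, passed the filter on low values only through the first set.

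Ccr7, Ccr8, Ccr9 and Ccr10 stayed at 125 or lower in every library and were each highest in that labelled HCN3- 3; these 4 were picked after their values were seen. Ccr7, which guides T cells and dendritic cells to lymph nodes, had 0 reads in both libraries of the first set and was at 7.42, 19.6 and 42.8 in the second. That is at least 6.16-fold higher in the second set against a floor of 3 reads per library. Limma called it (adjusted p = 0.0413), while the authors' deposited table did not (0.337). With edgeR (adjusted p = 0.0682) or a pseudocount of 5 in limma (adjusted p = 0.0818) it was not called, while DESeq2 called it (adjusted p = 0.0201). It passed the filter on low values only through the second set, as Ccl8 did through the first, and the call was lost without any 1 of the 5 libraries. Ccr9, of gut-homing T cells, was at 2.82 and 43.3 against 20.8, 2.67 and 125. Exons of Ccr9 overlap Slc6a20a and AC165425.1 on the other strand and Gm17200 on the same strand, so its reads are uncertain.

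Ccr10 was at 0 and 2.22 against 7.42, 14.3 and 49.3, and Ccr8 was at 27.9 or lower in each library. Neither was called. Markers of T, B and natural killer cells were also highest in the library labelled HCN3- 3 within the second set, with summed levels of 1021, 328 and 2893, although the first set stood at 3220 and 5394. Most single genes did not follow these first-set sums. Of 14 tested, 3 had a log2 fold change above 0 and 11 below (median -2.33, first minus second set). Limma called 2 higher and 2 lower, where the background was 10.6% and 9.88%. In the first set 7 and 5 of the 14 were at 0. The T cell gene Cd3e was at 0 in both libraries of the first set and in that labelled HCN3- 1. It was at 3.71 and 27.0 in those labelled HCN3+ 2 and HCN3- 3. The part of these cells in the levels of Ccl5, Cxcr6 and Ccr9 was not tested.

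Limma called none of the 5 CXC receptors tested, while edgeR and DESeq2 each called Cxcr2. The background in either direction was 20.5% in limma, 17.0% in edgeR and 27.3% in DESeq2. The sets did not overlap for 3 of the 5, near the background of 49.6%. Cxcr2, the neutrophil receptor (chromosome 1, 74153989 to 74161246), was at 1435 and 276 in the first set and at 117, 183 and 145 in the second (log2 fold change 2.10, SE 0.72, limma adjusted p = 0.0883). Its adjusted p was 0.0465 in edgeR and 0.00303 in DESeq2. Cxcr3, a receptor of activated T cells and others, was at 317 and 252 against 29.7, 0 and 47.4 (4.64, SE 1.67, limma adjusted p = 0.10). The authors' deposited table called Cxcr3 (adjusted p = 0.00036) and not Cxcr2 (0.39). Cxcr5, the B cell receptor for Cxcl13, overlapped between the sets, at 59.2 and 47.7 against 35.6, 38.3 and 75.3. Exons of Cxcr5 overlap the opposite-strand gene Bcl9l.

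Levels of different genes were compared per kilobase of exon, from GENCODE M21 gene models. In the first set the mean normalized count per kilobase was highest for Ccl12 at 12995, followed by Ccr1 at 7133, Ccl6 at 6907, Ccl3 at 5260 and Ccl4 at 4958. In the second set it was 1546 for Cxcl12, followed by Ccl11 at 343, Cxcl14 at 153, Cxcl16 at 125 and Cxcl13 at 104. Of the 46 members, 13 had a mean normalized count of at least 1000 in the first set and 1 did in the second.

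Many members were clustered in the genome, and several neighbours were called in the same direction. The background was 10.6% of genes called higher in the first set and 9.88% lower. On chromosome 11, Ccl2, Ccl7, Ccl11, Ccl12 and Ccl8 lie within 81.2 kb (82035571 to 82116799), and 4 of these 5 were called higher in the first set while Ccl11, the middle gene, was called lower. A further group of 5 ligands lies within 138.9 kb (83525778 to 83664683), where Ccl9, Ccl6, Ccl3 and Ccl4 were called higher and Ccl5 was not called. On chromosome 9, the receptors Ccr1, Ccr1l1, Ccr3 and Ccr2 lie near each other and all 4 were called higher, whereas Ccr9 and Cxcr6, further along the same neighbourhood, were not called. On chromosome 5, Cxcl5, Cxcl3, Cxcl15, Cxcl1 and Cxcl2 lie within 146.6 kb. Of these, 2 were tested, and Cxcl2 was called higher while Cxcl1 was not called. Cxcl9, Cxcl10 and Cxcl11 lie within 44.1 kb of the same chromosome, where Cxcl10 alone was tested and was called higher.

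**Figure D3:**
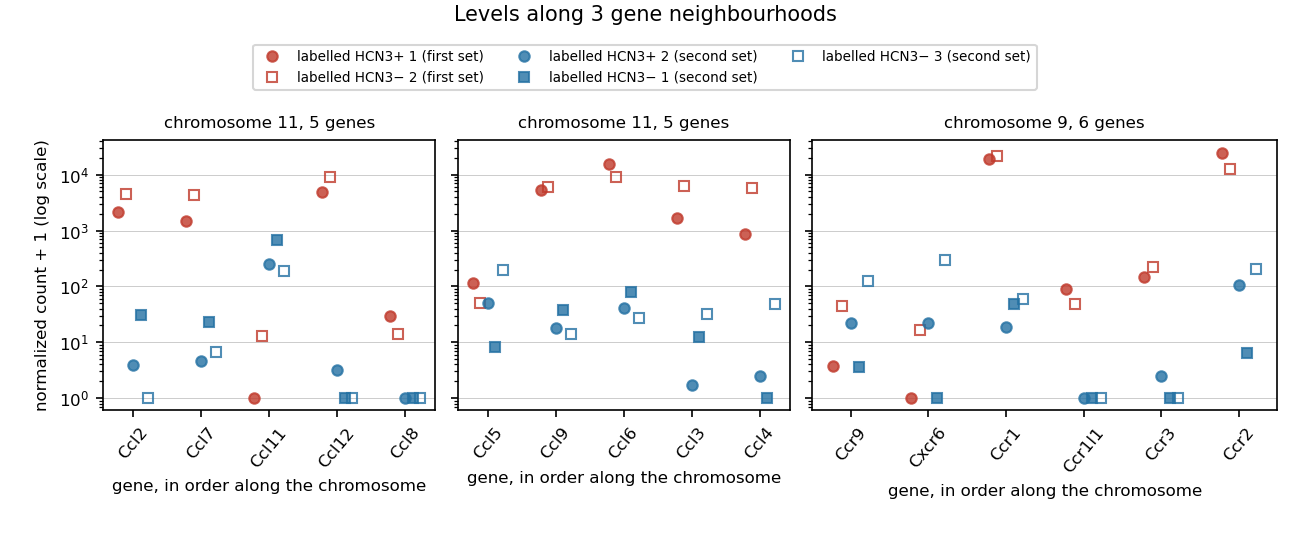
Normalized count plus 1 (log scale, vertical axis) in each library for genes in chromosomal order (horizontal axis) in 3 neighbourhoods, red for the first set and blue for the second, circles for labelled HCN3+ and squares for labelled HCN3-. Ccl11 lay at 191 to 669 in the second set between neighbours that were at 30.3 or lower there.

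Markers of macrophages and monocytes moved with these calls. Of 15 such genes tested, 14 were called higher in the first set and 0 lower, and their summed level was 463134 and 541005 in the first set and 3568 to 25135 in the second. Csf1r, the receptor that defines macrophages, was at 92160 and 139878 against 422, 423 and 546, and C1qa was at 10266 and 16832 against 1.48, 4.45 and 1.86. C1qa passed the filter on low values only through the first set. Fcgr1 was at 0 in the libraries labelled HCN3- 1 and HCN3- 3, and Ly6c2 at 0 in that labelled HCN3- 1. All 7 pan-leukocyte genes were called higher in the first set. For these lists and those below, the background was 10.6% of genes called higher and 9.88% lower.

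Stromal, muscle and endothelial markers were lower in the first set, as were Cxcl12 and Ccl11. All 10 stromal, all 9 smooth muscle and all 10 endothelial genes tested were called lower in the first set. Summed levels of the stromal list were 11839 and 11059 in the first set and 121124, 219909 and 107516 in the second. For the endothelial list they were 8508 and 9485 against 34628, 57385 and 129086, and for smooth muscle 6433 and 4519 against 97138, 133322 and 24774. Cxcl12 was highest in the library labelled HCN3- 3, as was the endothelial sum. The podocyte sum was highest there too, at 36986, 48978 and 307419 in the second set. In contrast, the stromal and smooth muscle sums were the lowest of the second set in that library. Ccl11 was highest in the library labelled HCN3- 1, as were the stromal and smooth muscle sums. The part of any cell type in the chemokine levels was not tested.

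Of 12 collecting duct and urothelial genes tested, 0 were called between the sets. Podocyte markers were called lower in the first set for 5 of 6 genes, against a background of 9.88%. Of 9 genes tied to urinary tract pacemaking, 5 were called lower in the first set, among them Kcnj8 at 52.2 and 124 against 2602, 3261 and 2819. Hcn2, Hcn3 and Hcn4 each had 0 reads in the library labelled HCN3+ 1.

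The other chemokine families and scavenger receptors went both ways. Of 11 tested, 3 were called higher in the first set (Cx3cr1, Pf4 and Ccrl2) and 2 lower (Ackr3 and Ackr1). The background was 10.6% higher and 9.88% lower. Fold changes of 6 were above 0 and of 5 below. Ackr1 had 0 reads in both libraries of the first set and passed the filter on low values only through the second. Cx3cr1, the fractalkine receptor of resident macrophages, was at 23655 and 38024 against 14.8, 14.3 and 20.5. Its ligand Cx3cl1 was at 696 and 215 against 576, 593 and 698 and was not called.

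Of 30 genes tested that carry the signal of chemokine receptors, 21 were called higher in the first set and 0 lower. Fold changes of 26 were above 0 and of 4 below. The leukocyte phosphoinositide kinase Pik3cg was at 8039 and 10226 against 154, 116 and 550, and the arrestin Arrb2, which switches receptors off, at 4557 and 4221 against 309, 328 and 331. Gnb1, a G protein subunit made by all cells, was not called, at 12245 and 12306 against 13841, 13382 and 13112 (limma adjusted p = 0.601).

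Of 26 genes that induce chemokine transcription or carry that signal, 16 were called higher in the first set and 0 lower. Il1b was at 1374 and 2870 against 8.16, 6.24 and 16.7, and Tnf was at 199 and 332 against 2.97, 0 and 0.93. Tnf passed the filter on low values only through the first set. Among the interferon factors, Irf5 was at 11316 and 9477 against 197, 172 and 166. Of 18 proteases and carriers that trim or display chemokines, 5 were called higher and 3 lower, where the background was 10.6% and 9.88%. The 3 called lower were Mmp2, Mmp14 and Sdc1, with Mmp2 at 1129 and 1747 against 7747, 9364 and 6755. By label 0 genes of these 4 lists were called in limma.

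Within the first set the 2 libraries, which carry different labels, differed in which members led. With 1 library on each side there is no test, and the intervals cover counting error only. The library labelled HCN3- 2 had more of several ligands: Ccl4 was 6.51-fold higher (exact 95% interval 5.99 to 7.09), Ccl3 3.76-fold (3.53 to 4.0), Ccl7 2.88-fold (2.69 to 3.08) and Cxcl2 2.38-fold (2.04 to 2.79). Other ligands did not go this way: the ratio of HCN3- 2 to HCN3+ 1 was 0.582 for Ccl6 (0.566 to 0.599), 0.899 for Cxcl10 (0.777 to 1.04) and 1.09 for Ccl9 (1.05 to 1.14). For Ccr1 it was 1.14 (1.12 to 1.17). Immediate early and dissociation response genes were also higher there, with a summed level of 173429 against 60324, and Fos at 23149 against 3938. Their part in these ligand levels was not tested.

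The library labelled HCN3+ 1 had more Cxcr2, by 5.19-fold (4.52 to 5.99), Ccl5, by 2.37-fold (1.62 to 3.50), and Ccr2, by 1.94-fold (1.90 to 1.99). Neutrophil genes were higher there too, with a summed level of 72070 against 8197 and S100a8 at 20709 against 2460. The inflammatory monocyte gene Ly6c2 was at 13037 against 6096, whereas Mrc1 of tissue macrophages was at 24180 against 57977. The part of neutrophils and monocytes in Cxcr2 and Ccr2 was not tested.

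**Figure D4:**
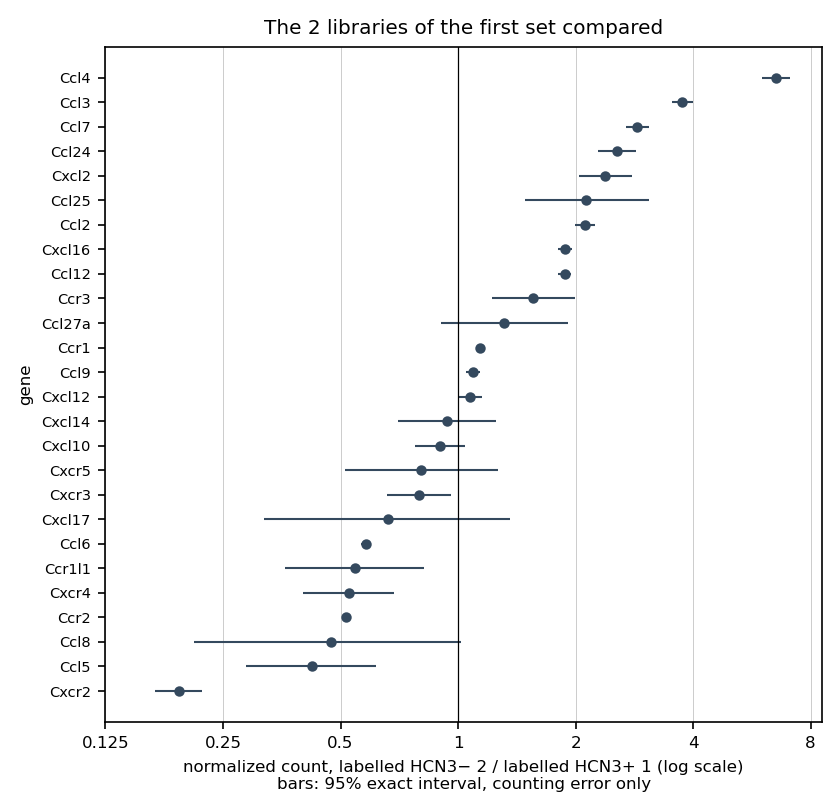
Ratio of the normalized count in the library labelled HCN3- 2 to that labelled HCN3+ 1 (horizontal axis, log scale) for 26 members with more than 3 reads in each and at least 20 in both together (vertical axis). Bars are exact 95% intervals of counting error, and the ratio ran from 0.193 for Cxcr2 to 6.51 for Ccl4.

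The 17 members not described in full stayed at 193 or lower in every library. Of these, 11 were tested. None was called in limma, but this follows from the rule that set them apart and is not a result about them. The 6 under the filter, Cxcl3, Cxcl5, Cxcl9, Cxcl11, Cxcl15 and Ccr6, reached at most 15.5, and Ccr6, the receptor of Ccl20, had reads only in the library labelled HCN3+ 2.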

How the data were processed

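The genome build mm10 and the tools TopHat2 2.0.11, HTSeq 0.6.1p2 and DESeq 1.18.0 are listed without their roles, per the submitters' processing notes. Which annotation was counted is not stated there. Libraries were made with Clontech and Nextera XT kits, per the labels' protocols. The authors deposited 1 table with a signal column for each library, whose values were taken to be read counts divided by 1 size factor per library. It also holds their fold (ratio), log2 fold change, p-value and adjusted p-value, per the file headers. Whole reads were recovered from the smallest value of each column (100% of values whole within 0.01), and 2 columns of means over unnamed groups were not used. The 3 summary rows of the read counter, which named no gene, were left out; as a share of all counted entries they were 13.5% to 18.7% not unique, 0.792% to 2.32% ambiguous and 8.58% to 14.0% in no feature. Each pair of libraries differed by more than counting noise, with a chi-square of 98.3 to 743 for each degree of freedom.

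The test was limma 3.58.1 (trend, 2-sided) in R 4.3.3 on log2(normalized count + 1) for the 16579 genes whose mean reached 5, and p-values were adjusted across them by Benjamini-Hochberg. Fold changes are on that scale and can differ either way from the log2 ratio of set means for genes near 0 in some libraries. Ccl12 was at 12.14 against 13.20 in the authors' deposited table, and Ccl2 at 9.30 against 8.25. Alternatives were pseudocounts of 0.5 and 5, other filters, TMM scaling, edgeR 4.0.16 and DESeq2 1.42.0 on recovered reads, a replicate block and leaving out each library. The fits were tested on simulated data. Members, lists and the use of the deposited table's sets were chosen with earlier results of these data known. Members are described in full where a group mean reached 100 or an adjusted p was under 0.05. The other members shown by library, and many genes outside the 46, were picked after their values were seen. Coordinates and exon lengths are from GENCODE M21 and promoters from RefSeq. One member and 1 gene of a related list are not reported by name here, and the former is left out of the figures.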

Additional observations from a re-analysis of the deposited data

How the results depend on the processing

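By label, 0 members were called under all alternatives run, while the direction of 18 of the 29 members described in full turned without the library labelled HCN3+ 1. Over the related lists, DESeq2 called 2 genes by label (Egr1 and Fbp1) and a crossed replicate block, added after seeing the data, called 1 (Egr1). The replicate block by title number called 0 members (Ccr4 at -3.07, Cxcl1 at -5.81). Same-numbered samples did not deviate together (r = -0.53 and -0.69 across genes, forced to mirror each other by the 2 libraries labelled HCN3+), so the numbers were not taken to pair samples. Between the sets, the 20 called members became 18 with edgeR, 21 with DESeq2, 19 in the authors' deposited table and 18 to 20 with other pseudocounts, filters and TMM. Leaving out 1 library gave 9 to 18, the lowest without the library labelled HCN3+ 1, and over the related lists 51 to 121 against 126. Where this leaves 1 library in a set, it is assumed to vary like the others. Directions turned between the sets for Cxcl1 (0.62 in edgeR, 0.55 in both DESeq2 and the authors' deposited table, 2.29 without the library labelled HCN3+ 1) and for Ccl25 (0.22 without that library), neither called. The cause was not tested. Ccl8 and Ccr7 had few reads, and the effect of depth on their calls was not tested.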
